A study of Mus musculus with 24 samples.

Results

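The levels of 8 cell cycle inhibitor and p53 pathway genes were examined in mouse hearts that lacked or carried Xinβ. These were the CDK inhibitors Cdkn1a, Cdkn1b, Cdkn1c, Cdkn2c and Cdkn2d, together with Trp53, Mdm2 and Ccng1. They were chosen by name for their roles, with earlier results of these data known. All 8 were found among the 15667 genes listed for uninjected hearts and among the 15327 genes listed for injected hearts.

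Cyclin-dependent kinases (CDKs), bound to cyclins, drive cells through the cell cycle. The CIP/KIP inhibitors p21 (Cdkn1a), p27 (Cdkn1b) and p57 (Cdkn1c) bind cyclin-CDK complexes, while the INK4 inhibitors p18 (Cdkn2c) and p19 (Cdkn2d) bind CDK4 and CDK6. The transcription factor p53 (Trp53) activates Cdkn1a, Mdm2 and Ccng1, and the MDM2 protein marks p53 for degradation. In rodent hearts, cardiomyocytes leave the cell cycle during the first postnatal days, and CDK inhibitors are known to take part in that exit.

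RNA was sequenced from 24 hearts collected at postnatal day 7.5, 4 in each of 6 groups. In the germline knockout (XinβKO), a LacZ-Neo cassette replaced parts of the gene for Xinβ, Xirp2, and the WT mice were control littermates on the C57BL6 background. The uninjected set held XinβKO and WT hearts. The injected set held WT and XinβKO hearts that received AAV9-GFP or AAV9-YAP on postnatal day 1 (WT/GFP, KO/GFP, KO/YAP and WT/YAP). The vectors used a cardiac troponin T promoter to limit expression to cardiomyocytes, and AAV9-YAP carried Flag-tagged human YAP in which the inhibitory Hippo phosphorylation site cannot be phosphorylated. The labels name the tissue as apex and the methods as ventricles. The mice were of mixed sex, which is not given per library. The Y-linked gene Ddx3y stood at 0.110 to 8.61 CPM in 1 uninjected XinβKO, 1 WT/GFP, 1 KO/GFP, 2 KO/YAP and 1 WT/YAP heart and at 21.7 to 88.9 CPM in the others, among them all 4 uninjected WT hearts, so it was not balanced between the groups.

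Depth and labels were checked first. Recovered depth was 20490875 to 31154155 reads in the uninjected libraries, read as 50 bp single ends, and 15015038 to 19444404 reads in the injected libraries, read as 150 bp paired ends. Xirp2 stood at 56.0 to 168 CPM (read counts scaled to library size) in WT hearts and at 0 to 0.972 CPM in XinβKO hearts, so no library went against its genotype label. All 8 cardiomyocyte markers were listed in every group, with summed levels of 46600 to 73220 CPM. Since the tables were normalised separately and the read types differed, tests were made only within each set. In bulk tissue, fewer cells of a type and less RNA per cell cannot be told apart.

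The start regions of Cdkn1a, Mdm2 and Ccng1, on which p53 is known to act, are shown for their sequence. RefSeq (GRCm38.p6) gave the 250 bases before each start site for 7 of the 8 genes, in 9 windows, and bases within annotated exons were cut from the printed sequence. They read 5′ to 3′ on the strand of the gene, with capitals at matches to the p53 half-site.
Cdkn1a, upstream start, chr17:29090729-29090975, plus strand: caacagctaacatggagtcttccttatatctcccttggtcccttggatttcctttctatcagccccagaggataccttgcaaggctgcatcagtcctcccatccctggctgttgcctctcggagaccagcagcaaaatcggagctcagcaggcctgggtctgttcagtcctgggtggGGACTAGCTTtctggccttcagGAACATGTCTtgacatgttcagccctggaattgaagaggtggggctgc
Cdkn1a, downstream start, chr17:29093519-29093768, plus strand: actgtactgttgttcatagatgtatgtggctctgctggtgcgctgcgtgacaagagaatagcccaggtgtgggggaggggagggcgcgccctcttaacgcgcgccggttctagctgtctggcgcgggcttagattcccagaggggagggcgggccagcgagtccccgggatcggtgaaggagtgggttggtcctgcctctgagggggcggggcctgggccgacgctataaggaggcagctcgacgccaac
Mdm2, chr10:117710759-117711008, minus strand: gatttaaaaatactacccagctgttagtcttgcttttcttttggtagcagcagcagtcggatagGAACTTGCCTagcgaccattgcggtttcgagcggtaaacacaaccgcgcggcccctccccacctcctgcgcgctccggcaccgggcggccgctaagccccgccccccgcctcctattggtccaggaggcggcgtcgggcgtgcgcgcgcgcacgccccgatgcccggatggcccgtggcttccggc
Ccng1, chr11:40755312-40755536, minus strand: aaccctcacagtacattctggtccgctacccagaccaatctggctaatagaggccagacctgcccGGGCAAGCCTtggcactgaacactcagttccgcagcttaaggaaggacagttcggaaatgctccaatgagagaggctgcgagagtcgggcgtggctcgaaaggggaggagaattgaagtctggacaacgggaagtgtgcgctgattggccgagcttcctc
The starts of Cdkn1a lie 2790 bases apart, and the downstream window lies in an intron of the transcript that begins at the upstream start. The upstream window held 2 half-site matches, GGACTAGCTT and GAACATGTCT, which began 73 and 51 bases before the start site. The downstream window held none. One match each was found in the windows of Mdm2 (GAACTTGCCT), Ccng1 (GGGCAAGCCT), Trp53 (GGACTTGCCC) and Cdkn2d (GGGCTTGCCT), so that 5 of the 9 windows held the motif. Of all 32851 RefSeq windows of 250 bases, 7.13% held it. The half-site reads the same way on both strands. A second motif, GGGCGG, the core of sites for SP1-like factors, was searched on both strands. It, too, was found in 5 of the 9 windows (the downstream window of Cdkn1a, the upstream window of Cdkn2c, and those of Mdm2, Cdkn2d and Cdkn1b), against 32.7% of all windows. These matches describe the letters alone and do not show that a factor bound there. Sites outside the 250 bases, and stretches that depart from the pattern, were not searched for, so the capitals need not be the sites that p53 uses.

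The 8 genes differed in level, compared per length as mean CPM per kb of annotated exon. In WT/GFP hearts, Ccng1 was the highest at 85.0 ± 5.32 CPM per kb (SD, n = 4). The other 7 genes lay between 8.86 ± 0.299 for Mdm2 and 15.8 ± 1.78 for Cdkn2d. Cdkn1a had rank 4 in WT/GFP hearts at 13.9 ± 1.80 CPM per kb and rank 2 in KO/GFP hearts at 29.5 ± 5.70. Cdkn2c took the opposite course, from 14.9 ± 1.21 and rank 3 in WT/GFP hearts to 8.14 ± 3.06 and rank 8 in KO/GFP hearts. The plot of CPM by group shows all 24 hearts for each gene.

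**Figure D1:**
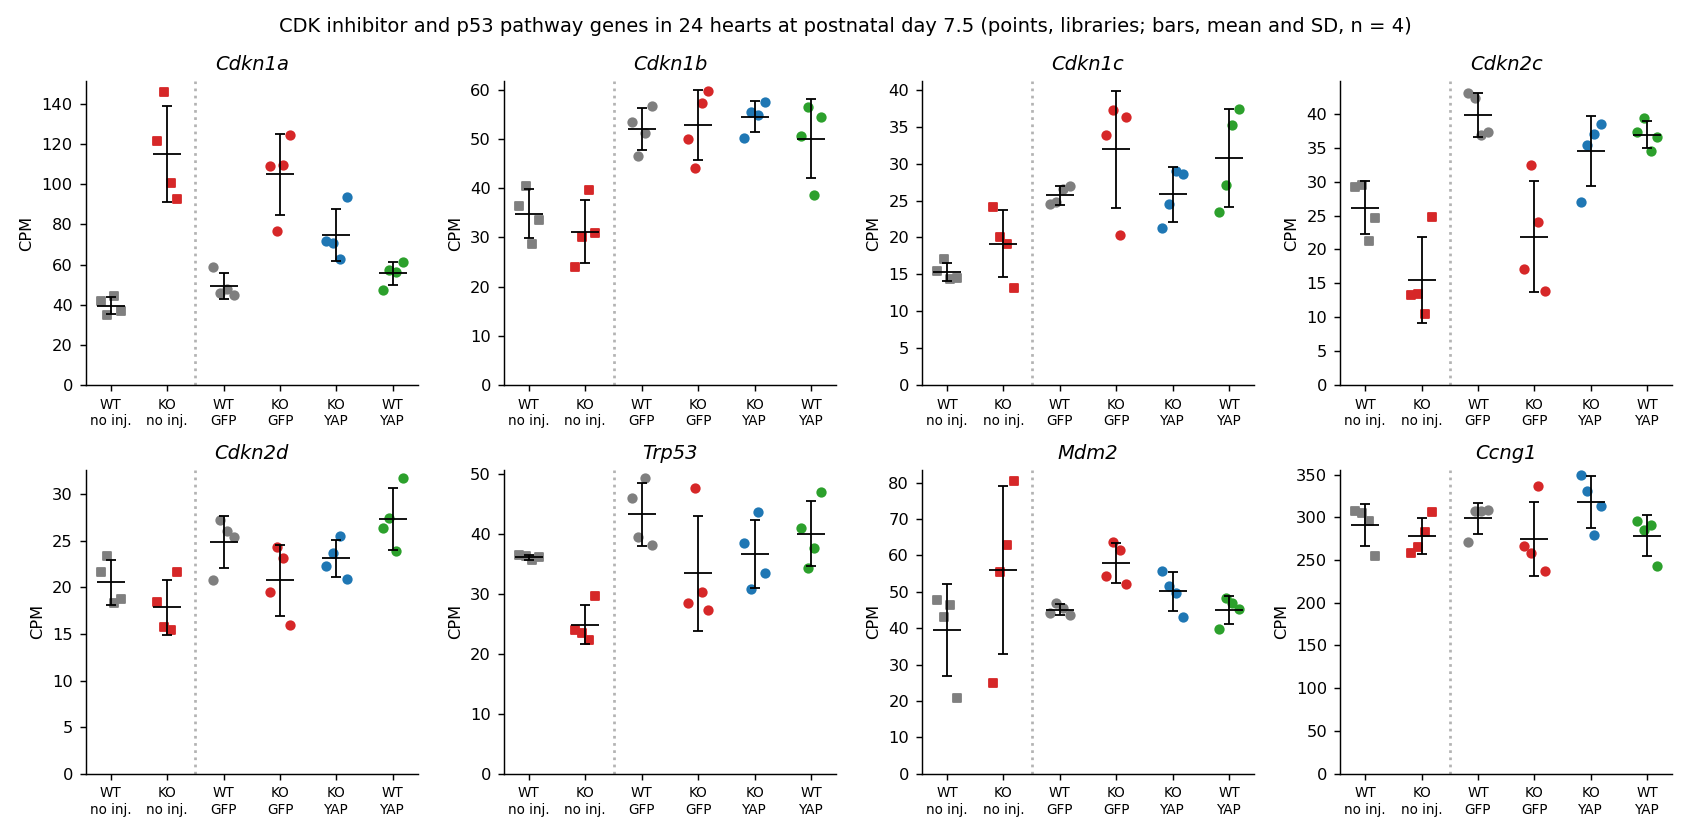
Level of each gene in CPM (vertical axes, from 0) in the 6 groups, with 1 point per heart and bars for mean and SD (n = 4). The dotted line separates the uninjected and injected sets, which were normalised separately. Cdkn1a was higher in every XinβKO heart without YAP (76.5 to 146 CPM) than in any WT heart (34.9 to 61.3 CPM), and Ccng1 stayed within 237 to 350 CPM in all hearts.

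Cdkn1a, which encodes p21 (GRCm38 chr17:29090976-29100727, plus strand), was higher in XinβKO hearts in both sets. Uninjected WT hearts held 41.7, 34.9, 44.2 and 37.0 CPM, and uninjected XinβKO hearts held 122, 146, 101 and 92.4 CPM. The groups did not overlap, and the mean rose from 39.4 ± 4.24 to 115 ± 23.9 CPM. On the log2 scale the change was 1.51 (SE 0.15, limma with Benjamini-Hochberg adjustment, adjusted p = 0.00145).

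The same gene was measured again in the injected hearts. WT/GFP hearts held 58.7, 45.7, 47.8 and 44.9 CPM, and KO/GFP hearts held 109, 76.5, 110 and 124 CPM. These groups did not overlap either, and the log2 fold change was 1.06 (SE 0.15, limma adjusted p = 0.000288). Cdkn1a passed the test in both genotype comparisons under each of 9 other analysis settings and with any 1 library left out.

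With YAP, Cdkn1a was lower in XinβKO hearts than with GFP. KO/YAP hearts held 71.8, 70.8, 62.7 and 93.5 CPM, so that they overlapped KO/GFP through replicate 4 of the first and replicate 2 of the second. Between KO/YAP and KO/GFP the log2 fold change was -0.48 (SE 0.15, 95% interval -0.79 to -0.17, limma adjusted p = 0.0385). The call was lost without KO/YAP replicate 1, 2 or 3 or KO/GFP replicate 1, 3 or 4 (changes of -0.47 to -0.39, limma adjusted p up to 0.112). It was also lost under edgeR's exact test (adjusted p = 0.0615), in limma without a trend (adjusted p = 0.0502) and with Ddx3y as a covariate (adjusted p = 0.0528).

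Between KO/YAP and WT/GFP hearts the Cdkn1a levels did not overlap, 62.7 to 93.5 against 44.9 to 58.7 CPM, and the ratio of means was 1.52. In log2 terms the difference was 0.58 (95% interval 0.27 to 0.89), and the limma test across all genes did not pass (adjusted p = 0.66). WT/YAP hearts held 47.5, 57.3, 56.1 and 61.3 CPM and overlapped WT/GFP (log2 fold change 0.17, 95% interval -0.14 to 0.48, limma adjusted p = 0.888). The order of group means among injected hearts was thus KO/GFP at 105, KO/YAP at 74.7, WT/YAP at 55.6 and WT/GFP at 49.3 CPM. Of the neighbours in this order, only KO/YAP and WT/YAP did not overlap, and their limma test did not pass (log2 fold change 0.41, adjusted p = 0.33). Whether YAP acted differently in XinβKO and WT hearts was tested as an interaction, which for Cdkn1a was -0.65 (SE 0.21, limma adjusted p = 0.0682). It passed without KO/GFP replicate 2 (-0.79, limma adjusted p = 0.0119), without KO/YAP replicate 4 (-0.76, adjusted p = 0.0367) and by DESeq2 (adjusted p = 0.0347).

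The other CIP/KIP inhibitors did not pass the test in any comparison of all hearts. Cdkn1b, which encodes p27 (chr6:134920401-134925513, plus strand), ranged from 23.9 to 40.5 CPM in the 8 uninjected hearts and from 38.6 to 59.8 CPM in the 16 injected hearts. Its groups overlapped throughout. For Cdkn1b, the log2 fold change between KO/GFP and WT/GFP was 0.02 (95% interval -0.24 to 0.27), an interval that excludes the estimate for Cdkn1a. In uninjected hearts it was -0.17 (95% interval -0.54 to 0.20).

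Cdkn1c, the imprinted gene for p57 (chr7:143458339-143461050, minus strand), held 15.4, 17.0, 14.4 and 14.5 CPM in uninjected WT hearts and 24.1, 20.1, 19.1 and 13.2 CPM in uninjected XinβKO hearts. Of the XinβKO hearts, 3 lay above every WT heart and replicate 4 lay below them. The log2 fold change was 0.27 (95% interval -0.11 to 0.66, limma adjusted p = 0.406). In the injected set, KO/GFP hearts held 33.8, 37.3, 20.3 and 36.4 CPM against 24.5 to 27.01 CPM in WT/GFP hearts, again with 1 heart on the other side. There, too, the log2 fold change was 0.27 (95% interval -0.11 to 0.65), and without replicate 3 of KO/GFP it was 0.46 (limma adjusted p = 0.0459). Without the same replicate, the change with YAP in XinβKO hearts was -0.47 (adjusted p = 0.043) and the interaction -0.69 (adjusted p = 0.0441), where those of all hearts were -0.27 and -0.50 and did not pass.

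Cdkn1c shares exon sequence with the antisense gene Gm44732, which was listed in the injected set at 6.03 to 15.3 CPM. The libraries kept strand, but whether the counting used it is not given in the sources used here. Of the 5 tested neighbours of Cdkn1c in its imprinted domain, only Kcnq1, a potassium channel gene, passed the test. It rose in XinβKO hearts without vector (log2 fold change 0.57, SE 0.11) and with GFP (0.54, SE 0.13), and it fell by 0.47 (SE 0.13) with YAP in XinβKO hearts (limma adjusted p = 0.0155, 0.0118 and 0.0228).

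Cdkn2c, which encodes the INK4 inhibitor p18 (chr4:109660876-109667189, minus strand), was lower in XinβKO hearts, opposite to Cdkn1a. WT/GFP hearts held 43.1, 42.3, 36.9 and 37.4 CPM, and KO/GFP hearts held 17.1, 32.4, 24.04 and 13.9 CPM. The groups did not overlap, and the mean fell from 39.9 ± 3.24 to 21.9 ± 8.22 CPM. Its log2 fold change was -0.90 (SE 0.19, limma adjusted p = 0.00433), and the call held under all 9 other settings and with any 1 library left out.

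In uninjected hearts the Cdkn2c values were 29.3, 29.4, 21.3 and 24.6 CPM for WT and 13.2, 13.4, 10.5 and 24.8 CPM for XinβKO. Replicate 4 of XinβKO stood among the WT values, whereas the other 3 XinβKO hearts lay below all of them. The log2 fold change of -0.78 (SE 0.24) did not pass the limma test (adjusted p = 0.0851). Without that replicate it was -1.02 and passed (adjusted p = 0.00374), as it did by DESeq2 (adjusted p = 0.0471) and with the level of the Y-linked gene Ddx3y as a covariate (adjusted p = 0.00412).

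With YAP, Cdkn2c rose in XinβKO hearts. KO/YAP hearts held 26.95, 35.5, 37.1 and 38.4 CPM, overlapping KO/GFP through KO/GFP replicate 2. Against KO/GFP the log2 fold change was 0.69 (SE 0.19, limma adjusted p = 0.0205), and the call was lost without KO/YAP replicate 2, 3 or 4 or KO/GFP replicate 1 or 4 (0.51 to 0.67, adjusted p up to 0.0676) and under edgeR's exact test (adjusted p = 0.0817). Against WT/GFP, the change in KO/YAP was -0.21 (95% interval -0.61 to 0.18). WT/YAP hearts, at 34.5 to 39.3 CPM, overlapped WT/GFP (-0.11, 95% interval -0.50 to 0.29). The interaction was 0.80 (SE 0.26, limma adjusted p = 0.0776), and without KO/GFP replicate 2 it was 1.00 (adjusted p = 0.00812).

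Replicate 4 of uninjected XinβKO and replicate 2 of KO/GFP were the hearts with the lowest Cdkn1a and the highest Cdkn2c of their groups. In the same hearts the summed level of 10 proliferation markers was the highest of the group. It was 655 CPM in that uninjected XinβKO heart against 117 to 179 CPM in the other 3, and 538 to 676 CPM in WT hearts. In KO/GFP it was 438 CPM in replicate 2, 404 CPM in replicate 3, 234 CPM in replicate 1 and 122 CPM in replicate 4, and 559 to 658 CPM in WT/GFP. Replicate 3 was thus close to replicate 2 in this sum, but its Cdkn1a, at 110 CPM, was near the 109 CPM of replicate 1. Both hearts also had the lowest Ddx3y of their groups, 3.68 CPM against 21.7 to 56.2 CPM and 0.588 CPM against 51.6 to 68.1 CPM. Without the heart in question, the genotype changes were 1.60 (uninjected) and 1.20 (GFP) for Cdkn1a, and -1.02 and -1.11 for Cdkn2c. Without KO/GFP replicate 2, the changes with YAP in XinβKO hearts were -0.62 for Cdkn1a and 0.90 for Cdkn2c.

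**Figure D2:**
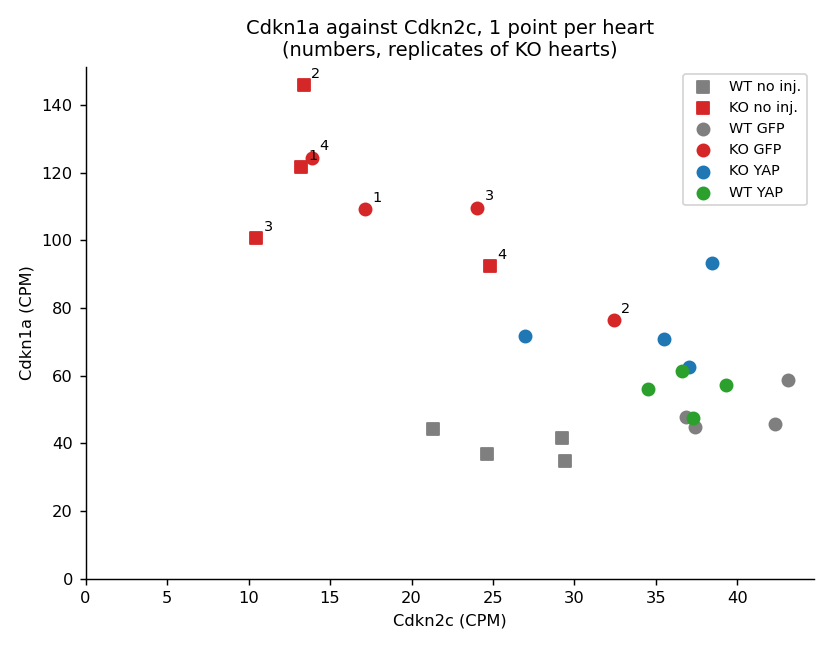
Cdkn1a (vertical axis, CPM) against Cdkn2c (horizontal axis, CPM), 1 point per heart; squares mark uninjected and circles injected hearts, and numbers give the replicates of the XinβKO groups without YAP. XinβKO hearts lie at the upper left, with uninjected replicate 4 (24.8 CPM Cdkn2c, 92.4 CPM Cdkn1a) and KO/GFP replicate 2 (32.4 and 76.5 CPM) nearest to the WT and YAP groups.

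Cdkn2d, which encodes the INK4 inhibitor p19 (chr9:21288410-21291407, minus strand), did not pass in any comparison of all hearts. It ranged from 15.4 to 23.4 CPM in uninjected hearts and from 15.97 to 31.8 CPM in injected hearts, and the groups overlapped in the genotype comparisons. Its log2 fold change was -0.20 (95% interval -0.51 to 0.12) in uninjected hearts and -0.26 (95% interval -0.54 to 0.02) between KO/GFP and WT/GFP. Cdkn2a and Cdkn2b, the other INK4 genes, were not analysed here. Cdkn3, a phosphatase that acts on CDKs, stood at 1.25 to 9.08 CPM and did not pass (limma adjusted p = 0.0887 between KO/GFP and WT/GFP, log2 fold change -0.74, SE 0.28).

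Trp53 (chr11:69580359-69591873, plus strand) was lower in uninjected XinβKO hearts, while its target Cdkn1a was higher. WT hearts held 36.5, 36.3, 35.6 and 36.1 CPM, and XinβKO hearts held 23.9, 23.5, 22.3 and 29.7 CPM. The groups did not overlap. On the log2 scale Trp53 differed by -0.53 (SE 0.11, limma adjusted p = 0.0232), but the call was lost without any of the WT hearts or without XinβKO replicate 2 or 3 (-0.54 to -0.48, adjusted p up to 0.0834). It was also lost in limma with a replicate block (adjusted p = 0.0927).

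In the injected set, KO/GFP hearts held 28.5, 47.7, 30.3 and 27.3 CPM of Trp53 against 46.0, 39.6, 49.4 and 38.2 CPM in WT/GFP hearts. Replicate 2 of KO/GFP stood among the WT values and the other 3 lay below them. The log2 fold change was -0.39 (95% interval -0.73 to -0.05, limma adjusted p = 0.125), and -0.57 without that replicate (adjusted p = 0.00694). KO/YAP hearts held 38.5, 30.9, 43.7 and 33.5 CPM and overlapped KO/GFP (log2 fold change 0.15, 95% interval -0.19 to 0.49).

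Mdm2, which encodes the ubiquitin ligase that holds p53 in check (chr10:117688875-117710758, minus strand), was higher in KO/GFP than in WT/GFP hearts. WT/GFP hearts held 44.0, 46.9, 45.7 and 43.6 CPM, and KO/GFP hearts held 54.3, 63.6, 61.5 and 52.1 CPM, with no overlap. Mdm2 had a log2 fold change of 0.35 (SE 0.10, limma adjusted p = 0.0217). The call was lost without WT/GFP replicate 1 or 4 (0.33 to 0.34, limma adjusted p up to 0.0546) and under edgeR's exact test (adjusted p = 0.0645).

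With YAP, XinβKO hearts held 55.8, 51.6, 49.7 and 43.2 CPM of Mdm2 and overlapped both GFP groups (log2 fold change -0.21 against KO/GFP, limma adjusted p = 0.16, and 0.14 against WT/GFP, adjusted p = 0.842). The uninjected hearts were more spread, at 47.7, 43.2, 46.5 and 20.9 CPM in WT and 25.0, 55.4, 63.0 and 80.6 CPM in XinβKO. WT replicate 4 and XinβKO replicate 1 lay far below their groups, and the log2 fold change of 0.44 had a 95% interval of -0.40 to 1.28. It was 0.17 without the former and 0.78 without the latter, and passed in neither fit (limma adjusted p = 0.825 and 0.121).

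Uninjected XinβKO replicate 1 stood apart in other genes as well. It held 35.4 CPM of Mdm4, a relative of Mdm2, against 100.5 to 152 CPM in the other 3 hearts of its group. For Hipk2, a kinase that acts on p53, it held 10.9 against 56.0 to 74.1 CPM. It was also the lowest of its group in Cdk6, Ep300 and Atm. The Cdkn1a and Trp53 calls in uninjected hearts held without this heart.

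Ccng1, which encodes cyclin G1, a p53 target (chr11:40748552-40755311, minus strand), did not pass in any comparison of all hearts. It stood at 254 to 307 CPM in uninjected hearts and at 237 to 350 CPM in injected hearts. Its log2 fold change was -0.06 (95% interval -0.29 to 0.16) without vector and -0.13 (95% interval -0.36 to 0.09) between KO/GFP and WT/GFP. Both intervals exclude the estimates for Cdkn1a in the same comparisons. With YAP in XinβKO hearts its log2 fold change was 0.22 (95% interval -0.01 to 0.44, limma adjusted p = 0.18), and 0.32 without KO/GFP replicate 3 (adjusted p = 0.0335).

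Counted together, 2 of the 8 genes passed the limma test in uninjected hearts, 1 higher and 1 lower in XinβKO. Of all 15598 tested genes 6.69% passed, 3.23% higher and 3.46% lower. Between KO/GFP and WT/GFP 3 passed, 2 higher and 1 lower, against 13.7% of the 14597 genes tested (6.43% higher and 7.22% lower). With YAP in XinβKO hearts 2 passed, 1 higher and 1 lower, against 14.8% (7.85% higher and 6.92% lower). The groups did not overlap for 2 genes in uninjected hearts (16.4% of all genes), 3 genes between KO/GFP and WT/GFP (15.3%) and 0 genes between KO/YAP and KO/GFP (17.5%). With counts this small, the shares of the 8 genes are not read against these backgrounds.

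Between KO/YAP and WT/GFP hearts, 0 of the 8 genes passed limma, DESeq2 or either edgeR test, and 1, Cdkn1a, had an unadjusted p under 0.05. Of all 14597 genes 0.0206% passed limma, and 888 had an unadjusted p under 0.05. Between WT/YAP and WT/GFP, 0 of the 8 passed any of these tests and 0 had an unadjusted p under 0.05, where limma called 0 of all genes (0%), with 1011 at an unadjusted p under 0.05, DESeq2 11 and edgeR's exact test 33. Between KO/YAP and WT/YAP, 0 passed (1 at an unadjusted p under 0.05) against 0.0411% of all genes (1627 at an unadjusted p under 0.05). Cdkn1a did not overlap between KO/YAP and either WT group, which held for 4.45% of all genes against WT/GFP and 9.23% against WT/YAP. Between the WT groups, 0 of the 8 did not overlap, against 4.32%. The interaction passed for 0 of the 8 by limma, with 3 at an unadjusted p under 0.05, and for 7.56% of all genes, with 3455 at an unadjusted p under 0.05. The comparisons in the injected set share their groups, so that the fall of a gene with YAP and its rise in KO/GFP both rest on the same 4 KO/GFP hearts.

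**Figure D3:**
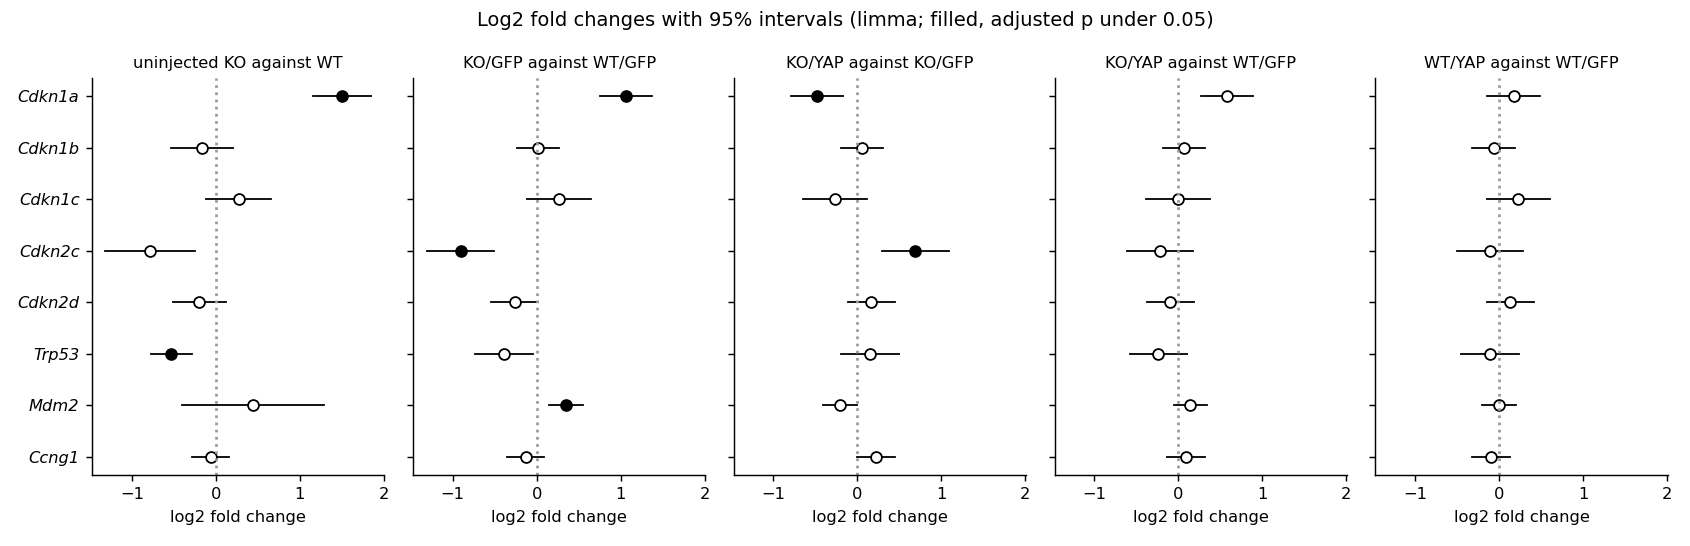
Log2 fold change (horizontal axes) of the 8 genes with 95% intervals in 5 comparisons of 4 against 4 hearts, from limma; filled points passed at an adjusted p under 0.05. Cdkn1a lies at 1.51 and 1.06 in the genotype comparisons and at -0.48 with YAP, Cdkn2c at -0.90 in KO/GFP and 0.69 with YAP, and no gene passed in the 2 panels at the right.

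Listed targets of p53 other than the 8 genes were examined next, split by role. These lists, too, were written with earlier results of these data known. Of the 16 genes for arrest and repair, 3 rose in KO/GFP against WT/GFP and 0 fell, where 6.43% of all genes rose and 7.22% fell. Their median log2 fold change was 0.20, where the median of all genes was -0.01. The 3 genes were Sesn1 (0.94, SE 0.21), Sesn2 (0.58, SE 0.19), both stress-induced regulators of mTORC1 signalling, and Polk (0.46, SE 0.14), a DNA polymerase that bypasses lesions. In uninjected hearts 1 rose, the sulfatase gene Sulf2 (0.43, SE 0.09), and 1 fell, the kinase gene Plk2 (-0.75, SE 0.18), with a median of 0.05 against 0.00 for all genes. Of all genes, 3.23% rose and 3.46% fell there. Sesn1 in uninjected hearts was at 0.51 (SE 0.15, limma adjusted p = 0.0812).

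Of the targets for death and survival, 4 of 18 tested genes rose in KO/GFP and 0 fell, with a median of 0.27. Of all genes, 6.43% rose and 7.22% fell. Ddit4, a stress-induced inhibitor of mTORC1 (1.499, SE 0.34), and Trp53inp1, a cofactor of p53 (1.35, SE 0.26), changed most. Fas, the death receptor (0.84, SE 0.19), and Dram1, a lysosomal regulator of autophagy (0.64, SE 0.16), also rose. In uninjected hearts 2 of 17 rose, Ddit4 (2.06, SE 0.37) and Fas (0.73, SE 0.17), against 3.23% of all genes, and the median was 0.07. Ddit4 held 118, 149, 120 and 37.9 CPM in the uninjected XinβKO hearts against 19.5 to 23.9 CPM in WT, with the lowest XinβKO value in replicate 4. The genes for the death effectors Bax, Bbc3 and Apaf1 did not pass in these comparisons.

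With YAP, 5 of the 18 death and survival genes fell in XinβKO hearts and 0 rose, where 6.92% of all genes fell and 7.85% rose. Among them were Ddit4 (-1.31, SE 0.34), Trp53inp1 (-1.30, SE 0.26), Dram1 (-0.83, SE 0.16) and Fas (-0.77, SE 0.19). Fas held 12.8, 8.63, 8.07 and 14.9 CPM in KO/GFP and 5.32 to 6.37 CPM in KO/YAP, with no overlap. Of the arrest and repair genes, Sesn1 (-0.96, SE 0.21) and Polk (-0.57, SE 0.14) fell, and Btg2, an antiproliferative gene, rose (0.88, SE 0.23). The medians of the lists were -0.29 and -0.23, where that of all genes was 0.01.

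**Figure D4:**
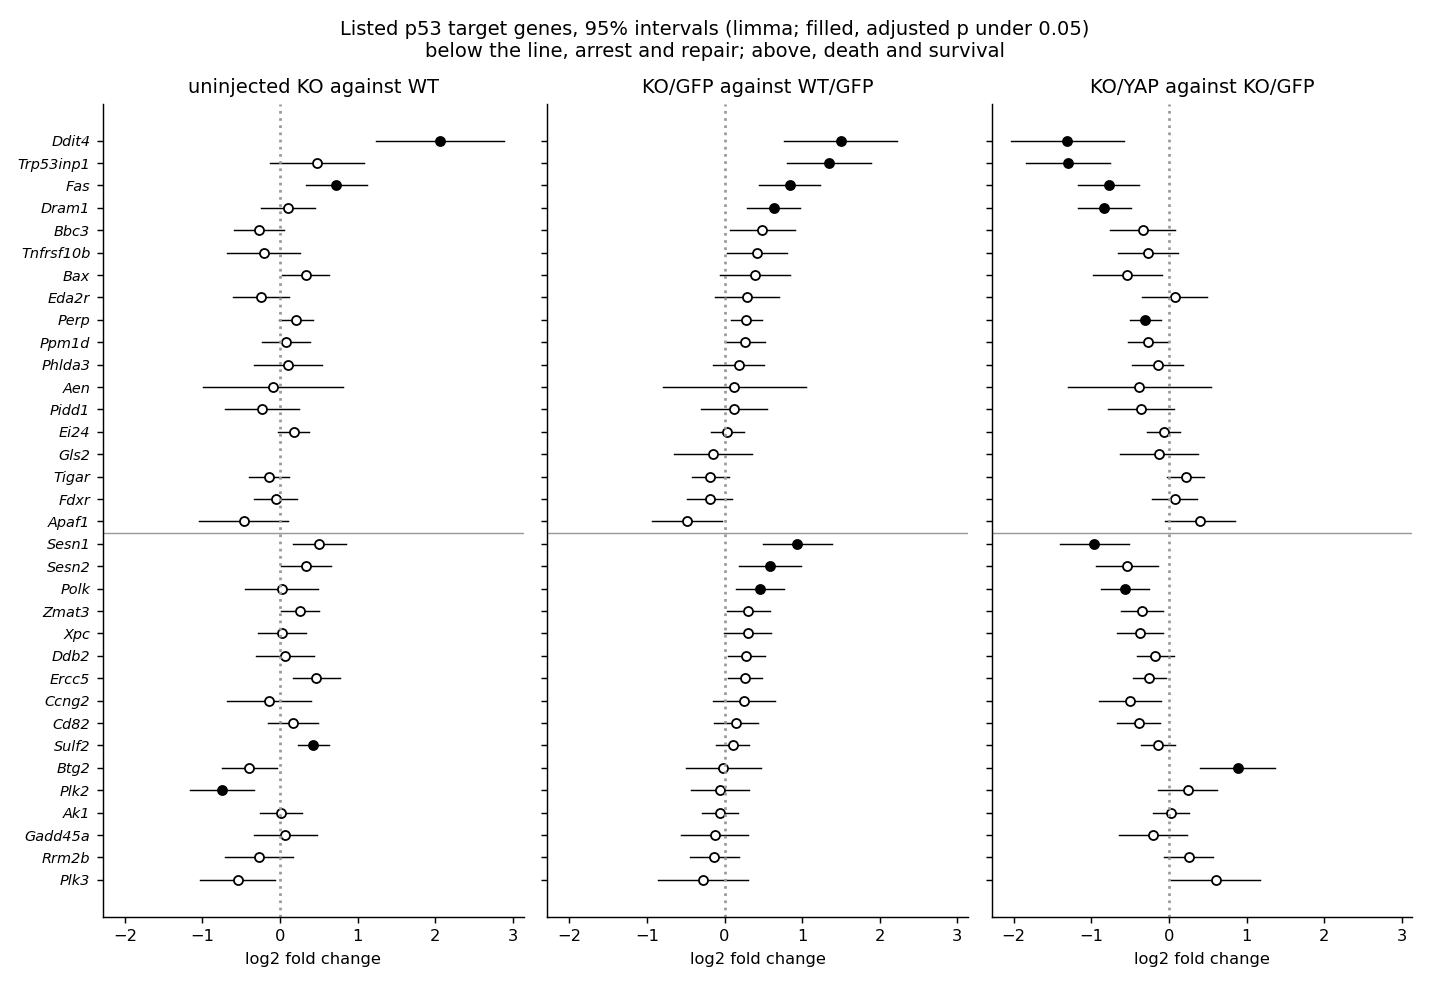
Log2 fold change (horizontal axes) with 95% intervals of the 34 tested p53 target genes on the lists in 3 comparisons of 4 against 4 hearts, from limma; filled points passed at an adjusted p under 0.05. Death and survival genes stand above the line and arrest and repair genes below it. Ddit4 is at the top, at 2.06, 1.499 and -1.31, and most intervals cross 0. Gls2 was not tested in uninjected hearts.

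Of 18 tested members of the p53 family and regulators of p53, 1 passed in KO/GFP against WT/GFP, where 13.7% of all genes did. It was Crebbp, an acetyltransferase gene (0.52, SE 0.09). It fell by 0.41 (SE 0.09) with YAP, when Trp63, a p53 relative, rose from 0.994 to 2.18 CPM (log2 fold change 0.67, SE 0.20). In uninjected hearts Chek1, a checkpoint kinase gene, fell by 1.23 (SE 0.29). The other regulators on this list did not pass in these 3 comparisons.

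Genes that regulate the transcription or turnover of p21 and p27 moved in both directions. In uninjected hearts 3 of 14 rose in XinβKO, namely Myc (1.23, SE 0.18), Klf9 (1.04, SE 0.23) and Foxo3 (0.77, SE 0.18), all genes for transcription factors. In KO/GFP 4 rose, Myc (1.20, SE 0.21), Klf9 (1.10, SE 0.19), Foxo3 (1.01, SE 0.20) and Foxo4 (0.60, SE 0.16), and 1 fell, Fbxl12 (-0.66, SE 0.18), a gene for an F-box protein. Of all genes, 3.23% rose and 3.46% fell in uninjected XinβKO hearts, and 6.43% rose and 7.22% fell in KO/GFP. MYC is known to repress Cdkn1a, and FOXO3 to activate Cdkn1b. With YAP in XinβKO hearts, Foxo3 (-0.83, SE 0.20) and Klf9 (-0.66, SE 0.19) fell and Klf4 (0.73, SE 0.16) rose. The medians of this list were 0.18, -0.04 and 0.05 in the 3 comparisons.

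Of the 11 genes for kinases and cyclins that the inhibitors bind, 5 fell in KO/GFP, where 7.22% of all genes fell and 6.43% rose. Among the 5 were Ccnb1 (-1.60, SE 0.31), Ccna2 (-1.38, SE 0.26), Cdk1 (-1.27, SE 0.37) and Ccne2 (-0.85, SE 0.18). One rose, Cdk6 (0.55, SE 0.09), a partner of the D cyclins that p18 binds. KO/GFP hearts held 89.9, 74.3, 83.5 and 96.2 CPM of Cdk6 against 55.3 to 60.8 CPM in WT/GFP. In uninjected hearts Ccne2 (-1.20, SE 0.29) and Ccnd2 (-0.77, SE 0.18) fell, and Cdk6 did not pass, with XinβKO replicate 1 at 10.7 CPM and the others at 92.5 to 107 CPM. With YAP, 3 rose, namely Ccnb1 (1.39, SE 0.31), Ccna2 (1.13, SE 0.26) and Ccnd2 (0.66, SE 0.11). The medians were -0.77 in uninjected hearts, -0.69 in KO/GFP and 0.55 with YAP.

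Of 10 genes of the RB family and the E2F factors, several of which RB proteins hold in check, 4 fell in KO/GFP, against 7.22% of all genes. These were Rbl1 (-0.94, SE 0.21), E2f2 (-0.86, SE 0.23), E2f1 (-0.85, SE 0.25) and E2f3 (-0.39, SE 0.12). E2f1 fell by 1.02 (SE 0.25) in uninjected XinβKO hearts. With YAP, E2f1 (0.76, SE 0.25) and Rbl1 (0.74, SE 0.21) rose. The medians were -0.82, -0.29 and 0.35 in the 3 comparisons. The 10 proliferation markers had medians of -1.37, -1.20 and 0.98, with 0, 9 and 6 genes passing, all 9 lower and all 6 higher.

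The genes whose levels followed each of the 8 most closely were named by Pearson's r of log2(CPM + 1) over the 16 injected hearts, as a description, since all points share the 4 groups. For Cdkn2c they were Kif20a (r = 0.98), Cdca8 (0.98) and Ccnb1 (0.97), and over the 8 uninjected hearts r was 0.96, 0.97 and 0.97. For Cdkn1a they were Slc41a3 (0.96), Cdc42ep4 (0.92) and Cdk6 (0.91), with 0.94, 0.92 and -0.25 in the uninjected hearts. For Trp53, Dynll1 (0.92) and Smarcb1 (0.90) are given, with 0.13 and 0.47. For Mdm2 they were Zfp970 (0.87), P3h2 (0.86) and Sema3f (0.86), with 0.90, 0.52 and 0.50.

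The other genes were ranked in the same way. Ccng1 was followed by Ppp2r5c (0.93), Ap2m1 (0.87) and Usp14 (0.86), with 0.44, -0.48 and 0.82 in the uninjected hearts. Cdkn2d was followed by Eldr (0.89), Rasip1 (0.88) and Kit (0.87), with 0.79, -0.23 and 0.59. Cdkn1c was followed by Mier2 (0.86), Ap4m1 (0.85) and Kifc2 (0.84), with 0.11, -0.48 and 0.83, and Cdkn1b by Gm26621 (0.85), Ankrd13a (0.81) and Aasdhppt (0.81), with 0.70, 0.43 and 0.01.

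Markers of several other cell types moved with the same groups. Of all genes, 6.69% passed in uninjected XinβKO hearts, 13.7% in KO/GFP and 14.8% with YAP in XinβKO hearts. Of 6 fibroblast markers, 3 fell in uninjected XinβKO hearts, 4 fell in KO/GFP and 4 rose with YAP, and their summed level was 1908 to 2951 CPM in KO/GFP against 3875 to 4532 in WT/GFP and 4108 to 5060 in KO/YAP. Of the macrophage markers, 4 of 5 tested fell in uninjected XinβKO hearts, 4 of 6 fell in KO/GFP and 4 rose with YAP, with sums of 24.9 to 65.0, 69.0 to 97.8 and 73.2 to 87.4 CPM in the same order. Only 2 of 6 neutrophil markers were tested, S100a8 and S100a9, and both rose in XinβKO hearts and fell with YAP (26.5 to 39.5, 3.70 to 7.75 and 1.92 to 9.95 CPM).

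Of 8 cardiomyocyte markers, 2 rose in both genotype comparisons and fell with YAP, Tnnt2 and Pln. Of 6 erythroid markers, 4 fell in KO/GFP and, by limma, 0 of 5 passed in uninjected hearts and 0 of 6 with YAP (0 at an unadjusted p under 0.05 in either), with sums of 2536 to 6484 CPM in WT/GFP, 943 to 2293 CPM in KO/GFP and 1412 to 1567 CPM in KO/YAP. Of 6 endothelial markers 1 and 3 fell without and with GFP, and of 6 smooth muscle markers 1 fell in each. With YAP in XinβKO hearts 2 endothelial markers rose and 1 fell, and 3 smooth muscle markers rose. Fabp4, the only 1 of 5 adipocyte markers that was tested, rose in both genotype comparisons and fell with YAP, at 996 to 1542 CPM in KO/GFP, 703 to 864 CPM in WT/GFP and 664 to 834 CPM in KO/YAP. The other 4 were not analysed here. None of 6 lymphocyte markers was abundant enough to be tested, at sums of 0 to 3.02 CPM in the injected hearts for the 2 that were listed. Their part in the changes of Cdkn1a, Cdkn2c, Trp53 and Mdm2 was not tested.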

How the data were processed

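RNA from 24 hearts was sequenced from strand-specific polyA-selected libraries. Per the methods and the submitters' processing notes, the authors used cutadapt 2.3 for trimming, HISAT2 2.1.0 for alignment (GRCm38), StringTie 1.3.4 for assembly and edgeR 3.26.1 for scaling. The deposited values are CPM on scaled libraries, so column sums differ (942566 to 1134439), and were handled as a normalised signal. In all, 100% of uninjected and 99.96% to 99.99% of injected values came out as whole reads (tolerance 0.05 reads).

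Gene identifiers were matched to GENCODE M21. Genes above 1 CPM in at least 50% of the libraries of a set were tested on log2(CPM + 1), which understates changes of low genes, with limma 3.58.1 (R 4.3.3), group means and a mean-variance trend. All groups of a set entered 1 fit. P-values were adjusted by Benjamini-Hochberg over all tested genes (threshold 0.05). Intervals are limma's 95% intervals. Since each sample is a separate mouse only by its label, p-values measure the spread between these samples.

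Alternatives were a pseudocount of 0.1, no filter, no trend, quantile normalisation, edgeR 4.0.16 (quasi-likelihood and exact tests) and DESeq2 1.42.0 on the recovered reads, Ddx3y as a covariate, a replicate block and leaving out each library. The study's methods name Fisher's exact test; limma was used because the deposited values are normalised, and the count tests were kept as alternatives. Named were the 8 genes, up to 4 called genes per direction of each list, the 3 genes most like each of the 8 (1 is not reported here), and Xirp2. Genes and lists were chosen with earlier results of these data known. Promoters came from RefSeq; that of Cdkn1c was not used here.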

Additional observations from a re-analysis of the deposited data

Results flagged for a closer look

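Among the 48 groups of 4 hearts (8 genes in 6 groups), 3 held 1 heart far from the others by Dixon's test, where chance gives about 2.4. KO/GFP replicate 2 held 47.7 CPM of Trp53, and the other 3 held 27.3 to 30.3 CPM. Uninjected WT replicate 4 held 20.9 CPM of Mdm2, and the other 3 held 43.2 to 47.7 CPM. WT/GFP replicate 1 held 270.6 CPM of Ccng1, and the other 3 held 307 to 309 CPM.

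For 4 genes on the lists other than cell type markers, the effect of YAP differed between XinβKO and WT hearts by limma's interaction test. They were 1 of 18 tested death and survival targets, 1 of 18 p53 regulators, 1 of 14 regulators of p21 and p27, and 1 of 11 kinases and cyclins. Of all genes, 7.56% passed this test, so the 4 genes are named without a reading of their lists. The difference in log2 fold change, XinβKO minus WT, was -1.64 (SE 0.36, adjusted p = 0.014) for Trp53inp1, -0.72 (SE 0.13, adjusted p = 0.00483) for Crebbp, -1.05 (SE 0.30, adjusted p = 0.0438) for Myc and 0.71 (SE 0.16, adjusted p = 0.014) for Ccnd2. On the marker lists it differed for 4 fibroblast, 3 macrophage, 2 neutrophil, 2 cardiomyocyte, 2 smooth muscle, 1 endothelial and 1 adipocyte marker. For none of the 8 main genes did the limma interaction pass (3 had an unadjusted p under 0.05, as had 3455 of all 14597 genes), and DESeq2 called 1.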

How the results depend on the processing

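Of single-gene changes under alternatives, 1268 kept direction and call, 25 calls were lost, 12 were gained and 23 turned sign. In uninjected hearts, 6.69% of tested genes passed limma, 12.5% DESeq2, 12.4% with Ddx3y as a covariate and 2.43% (without WT replicate 1) to 13.5% (without XinβKO replicate 4) with 1 library left out, which left 1 to 3 of the 8 genes called. Between KO/GFP and WT/GFP, 13.7% became 8.65% without KO/GFP replicate 1 or 4 and up to 18.9% without replicate 2. Between KO/YAP and KO/GFP, 2 of the 8 genes passed, 1 without a trend, 0 by the exact test, 1 with Ddx3y and 0 to 3 without 1 library, where 14.8% of all genes passed, and 10.1% to 17.1% without 1 library. Between KO/YAP and WT/GFP, 0.0206% of genes passed limma, 0.164% DESeq2, 0.151% the exact test and 0.00685% to 0.0274% without 1 library. The same shares were 0%, 0.0754%, 0.226% and 0% to 0.00685% between WT/YAP and WT/GFP, and 0.0411%, 0.459%, 1.55% and 0.0137% to 0.103% between KO/YAP and WT/YAP. For the interaction, DESeq2 called 1 of the 8 genes (Cdkn1a) and fits without 1 library 0 to 2, with 4.32% to 10.1% of all genes. The exact test could not be fitted to the interaction. The cause of these shifts was not tested.

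Deviations of same-numbered hearts from their group means had correlations of -0.19 to 0.098 (uninjected, 4 pairs) and -0.17 to 0.14 (injected, 24 pairs). This covers pairing by replicate number only. Per the methods the controls were littermates, but the labels give no litter, so pairing by litter was not tested and entered no fit. With a replicate block, 2.47% of genes and 1 of the 8 passed in uninjected hearts (Trp53 adjusted p = 0.0927) and 4.84% of genes for the interaction.

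Signs turned only for changes near 0 that passed in no setting. Cdkn1b between KO/GFP and WT/GFP was -0.0057 after quantile normalisation and -0.046 to 0.098 without 1 library, and with YAP in XinβKO hearts -0.028 to 0.116. Cdkn1c between KO/YAP and WT/GFP was 0.00664 by edgeR's quasi-likelihood test, 0.0094 by DESeq2 and -0.059 to 0.085 without 1 library. Mdm2 between WT/YAP and WT/GFP was 0.000137, 0.0020 and 0.0038 by edgeR's quasi-likelihood test, DESeq2 and the exact test, and -0.038 to 0.053 without 1 library. Without 1 library, Cdkn1b between WT/YAP and WT/GFP was -0.127 to 0.053, Cdkn2c between KO/YAP and WT/YAP -0.163 to 0.0027, and the Cdkn2d interaction -0.084 to 0.109. Depth did not limit the 8 genes, each above 10 CPM in every heart.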
